A study of Mus musculus with 10 samples.

Results

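Broad H3K27ac domains of the newborn mouse retina are long stretches of chromatin in which peaks of histone H3 acetylated at lysine 27 lie close together. The members were chosen by the control H3K27ac peak list alone: peaks on chr1 to chr19 separated by at most 1000 bp were joined, and joined regions of at least 10000 bp from first start to last end were kept. The rule left 277 domains of 48639 joined regions, which is 0.570%. They spanned 4.07 Mb and held 1830 of the 70458 control peaks. Their length and their acetylation in the control list are therefore a description of how they were chosen. The ATAC-seq, H3K27me3 and Casz1 cKO lists played no part in the choice.

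The study compared control retina with retina in which Casz1 had been conditionally deleted, in mice of the C57BL/6 strain. For ChIP-seq, 1 control library, labelled wild type and named Cre-negative in its peaks, and 1 Casz1 conditional knockout (cKO) library, named Cre-positive, were made for each of H3K27ac and H3K27me3 from microdissected retina at postnatal day 0. The cKO tissue was peripheral retina picked under epifluorescence, so tissue region and genotype cannot be told apart in the ChIP comparison. For ATAC-seq, 2 control and 2 cKO libraries were each made from 50000 sorted live GFP-positive cells of retinal explants kept 2 days ex vivo and labelled postnatal day 2, which had received a GFP plasmid alone (control) or GFP and Cre plasmids (cKO). The ATAC lists set against the domains thus differ from the ChIP lists in age, culture and sorting. The sources used here do not give the Cre driver of the ChIP tissue or the deleted part of Casz1. The 2 input samples were not analysed here.

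H3K27ac is carried by nucleosomes at active promoters and enhancers, and long acetylated stretches are known from genes that set a cell's identity. H3K27me3, placed by Polycomb repressive complex 2 on the same lysine, marks genes held silent, and ATAC-seq reports short stretches of open DNA. Newborn mouse retina holds dividing progenitors beside early-born neurons, and it is making rods. Casz1 encodes a zinc finger protein that binds DNA and is known for roles in retinal progenitors and in rods as they mature.

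The peak lists give positions only, with no height, read depth or p-value, so depth is unknown and each value below is a length, a share of length or a count. The control and cKO H3K27ac lists held 70458 and 76177 peaks on chr1 to chr19. They covered 54.4 and 50.7 Mb, with median peak widths of 397 and 322 bp. The 2 H3K27me3 lists covered 71.6 and 70.2 Mb. The ATAC lists ran from 39636 to 108569 peaks, and the list lengths did not follow genotype: control replicate 1 and cKO replicate 2 were short, control replicate 2 and cKO replicate 1 were long. With 1 library per genotype and mark there is no replicate check for either histone mark, and no p-value is given for them. Shares of ChIP coverage below compare 1 library with 1 library.

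The promoters shown here are those of transcription factor and receptor genes whose domains come up repeatedly below. Each is the 250 bases before an annotated start, 5′ to 3′ on the gene's strand, from RefSeq on GRCm38.p6. Capitals mark matches to 5 motifs on either strand: TAATCC, a core bound by homeodomain factors of the CRX and OTX kind; TAATTA, another homeodomain core; CAGCTG, an E-box; GGGCGG, the GC box; and CCAAT. On the opposite strand the first reads GGATTA, the GC box reads CCGCCC and the last reads ATTGG. Crx was added after its motif matches had been seen; the others follow the order of domain length. Both Casz1 starts are given because they lie in different domains. Pax6 has a second start in the same domain, at chr2:105682213-105682462, which is not printed.
Pax6, chr2:105668646-105668895, plus strand: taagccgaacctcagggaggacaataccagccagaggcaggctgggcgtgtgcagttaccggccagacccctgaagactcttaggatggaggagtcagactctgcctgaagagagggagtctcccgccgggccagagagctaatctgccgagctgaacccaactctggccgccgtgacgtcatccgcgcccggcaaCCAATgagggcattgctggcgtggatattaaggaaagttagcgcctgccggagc
Six3, chr17:85620584-85620833, plus strand: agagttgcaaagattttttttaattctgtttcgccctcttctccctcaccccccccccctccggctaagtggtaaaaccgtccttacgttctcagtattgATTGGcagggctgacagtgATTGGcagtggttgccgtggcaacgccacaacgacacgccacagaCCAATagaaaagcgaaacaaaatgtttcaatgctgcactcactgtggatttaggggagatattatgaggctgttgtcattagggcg
Notch1, chr2:26503823-26504072, minus strand: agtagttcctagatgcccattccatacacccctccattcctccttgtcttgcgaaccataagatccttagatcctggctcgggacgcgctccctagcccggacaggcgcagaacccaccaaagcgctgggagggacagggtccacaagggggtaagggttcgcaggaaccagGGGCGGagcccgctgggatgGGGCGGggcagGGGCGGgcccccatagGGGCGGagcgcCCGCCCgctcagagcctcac
Casz1, chr4:148804142-148804391, plus strand: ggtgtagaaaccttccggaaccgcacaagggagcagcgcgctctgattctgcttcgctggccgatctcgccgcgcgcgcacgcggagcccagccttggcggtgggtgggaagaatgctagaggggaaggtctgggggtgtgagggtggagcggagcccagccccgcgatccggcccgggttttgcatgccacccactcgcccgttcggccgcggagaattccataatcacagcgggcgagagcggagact
Casz1, chr4:148889097-148889346, plus strand: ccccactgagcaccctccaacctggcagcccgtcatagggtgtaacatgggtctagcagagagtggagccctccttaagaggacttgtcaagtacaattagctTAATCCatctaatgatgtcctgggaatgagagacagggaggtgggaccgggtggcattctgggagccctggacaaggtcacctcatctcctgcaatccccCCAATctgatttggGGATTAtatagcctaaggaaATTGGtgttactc
Crx, chr7:15879956-15880205, minus strand: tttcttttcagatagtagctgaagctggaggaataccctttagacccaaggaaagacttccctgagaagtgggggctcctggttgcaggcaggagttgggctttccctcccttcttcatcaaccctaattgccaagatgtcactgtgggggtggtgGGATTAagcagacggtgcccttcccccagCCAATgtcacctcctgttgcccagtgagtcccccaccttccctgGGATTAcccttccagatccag

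The Pax6 window held 1 CCAAT match, the Six3 window 3, and the Notch1 window 5 GC boxes. The upstream Casz1 window had 66.8% GC, 27 CpG and none of the 5 motifs. The downstream Casz1 window had 52% GC, 2 CpG, 2 TAATCC matches and 2 CCAAT matches, and the Crx window also held 2 TAATCC matches. Over the 96 promoter windows that lay in domains, of 20084 in the RefSeq table on these chromosomes, TAATCC was present in 4.17% against 5.81% of all windows. TAATTA was present in 1.04% against 4.25%, CAGCTG in 13.5% against 12.2%, the GC box in 47.9% against 43.4% and CCAAT in 39.6% against 35.3%. Median GC content was 61.2% in domain windows and 56% in all windows, and the median CpG count was 13 against 10. A match is a run of letters and not a measured binding site.

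Mature microRNAs are shown for 2 domains that contained no protein-coding gene but held microRNA hairpins with known roles in the nervous system. The RefSeq table places 8 of 919 hairpins on chr1 to chr19 inside a domain. Capitals mark the seed, bases 2 to 8.
miR-9-5p, chr13:83738821-83738843, plus strand: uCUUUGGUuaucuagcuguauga
miR-9-3p, chr13:83738858-83738879, plus strand: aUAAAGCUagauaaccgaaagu
miR-183-5p, chr6:30169711-30169732, minus strand: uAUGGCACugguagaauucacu
miR-96-5p, chr6:30169506-30169528, minus strand: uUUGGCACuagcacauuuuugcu

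The 4 seeds differ from each other, but those of miR-183-5p (AUGGCAC) and miR-96-5p (UUGGCAC) differ in their first base alone. The miR-9 pair comes from Mir9-2, a microRNA of neural progenitors, and the other pair comes from Mir183 and Mir96, which belong to a cluster expressed in sensory cells including photoreceptors. The third hairpin of that cluster, Mir182, lay 994 bp outside its domain. The Mir9-2 domain (chr13:83718543-83745993, 27451 bp) was among the 15 longest and had its nearest protein-coding end, of Mef2c, at 51463 bp. The other hairpins in domains were Gm51268, which lies on the opposite strand at Mir9-2, and Mir7662, Mir2861, Mir3960 and Mir3089.

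Domain length ran from 10003 to 50434 bp with a median of 13054 bp, and 31 domains reached 20000 bp. The longest lay at Ccdc85c (50434 bp), followed by domains within Pcbp3 (44078 bp) and Frmd4a (38718 bp). Pax6, which encodes the paired-box factor that specifies the eye field, came next (36269 bp), and its domain contained a single peak of 28338 bp, the widest in the control list. The domains at Bccip and Dhx32 (33814 bp), within Lrp8 (29690 bp), at Smim38 and Tpcn2 (27694 bp) and at Mir9-2 followed. Sh3bgrl2 (27286 bp), Six3 (26436 bp), Tspan15 (25967 bp), Vgll4 (25917 bp), Dkk3 (25523 bp), a stretch inside Casz1 (25029 bp) and a second domain near Sh3bgrl2 (24951 bp) completed the 15 longest. SIX3 is a homeodomain factor of the eye field, and Dkk3 encodes a secreted Dickkopf family protein known from Müller glia.

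**Figure D1:**
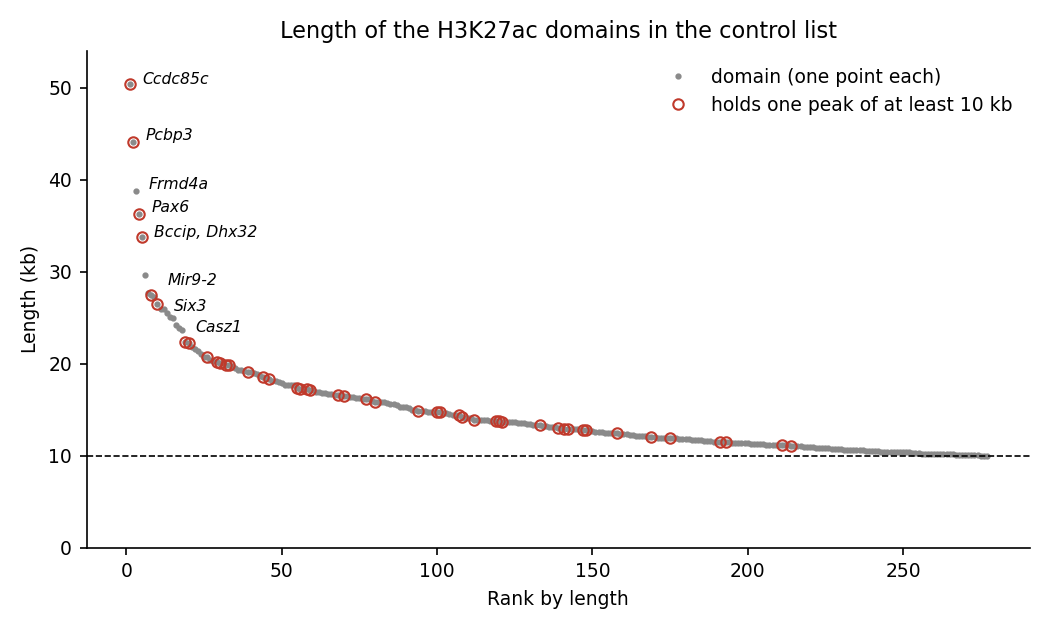
Length in kb of each of the 277 domains against its rank, with the 10 kb minimum as a dashed line and red rings around domains that hold 1 peak of at least 10 kb. Lengths drop steeply over the first ranks, from 50434 bp at Ccdc85c, and most points lie between 10 and 20 kb.

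The length threshold cuts through a continuous run of values. Just inside it were domains at Anp32a (10003 bp), Daam1 (10027 bp) and Ccdc85c (a second domain of 10028 bp), and just outside were regions at Ralgds (9959 bp), a histone gene group with H1f5 (9974 bp) and Usp48 with Rap1gap (9977 bp).

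The domains were built in different ways. A single peak of at least 10000 bp was present in 46 domains, including those of Pax6, Six3, Six6, Rax, Meis1, Meis2, Rorb and Tbx2. The other 231 were chains of shorter peaks, with a median of 7 peaks per domain, and the Pcbp3 domain held 25. A protein-coding gene end lay in 24 of the 46 domains with a wide peak (52.2%) and in 80 of the 231 chains (34.6%). Control H3K27me3 covered at least 10% of the length of 11 of the 46 (23.9%) and of 14 of the 231 (6.06%). An end of a gene of the progenitor, neurogenic or photoreceptor regulator lists lay in 11 domains of each kind. This split was made after the values had been seen and carries no test.

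By position, 127 domains (45.8%) lay within a gene and contained neither of its ends, 104 (37.5%) contained at least 1 protein-coding gene end, and 46 (16.6%) lay outside genes. Of 20661 protein-coding genes, 121 had an end in a domain (0.586%) and 227 overlapped one. The overlapping genes were long, with a median of 52.3 kb against 17.5 kb for all. Longer genes have more room to overlap a domain, and only a gene longer than 10000 bp can contain a whole one. The length difference therefore follows at least in part from the rule and the overlap count. Of 12408 long noncoding RNA genes 107 had an end in a domain, among them Pax6os1 and Paupar in the Pax6 domain, Six3os1 in the Six3 domain and Malat1 in a domain of 16557 bp (chr19:5797810-5814366). The miR-124 host genes Mir124-2hg and Mir124a-1hg also had an end in a domain, of 19896 bp on chr3 and 15856 bp on chr14, both outside protein-coding genes.

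Genes that specify the eye field and keep retinal progenitors dividing formed the largest group. Of the 28 genes listed for that role, 11 had an end in a domain (39.3%, against 0.586% of all protein-coding genes), and the median longest acetylated region per gene was 8911 bp, against 1206 bp for all genes. Besides Pax6 and Six3 these were Notch1 (21385 bp), the receptor that holds progenitors undifferentiated, Ccnd1 (16563 bp), the cyclin that drives their division, the homeodomain genes Meis2 (16512 bp) and Meis1 (14728 and 12442 bp), and Id3 (16163 bp), an inhibitor of bHLH factors. Six6 (13776 bp), Rax (13054 bp), Sox8 (12957 bp) and Zic2 (11496 bp) were the others, and Lhx2 overlapped a domain of 12942 bp that held neither of its ends. The lists were assembled with earlier results of these data known, so the counts describe them and do not test them.

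Neurogenic genes, which push progenitors toward a neuronal fate, were represented by 5 of 22 (22.7%). Foxn4, a forkhead gene required for amacrine and horizontal cells, had a domain of 24178 bp. Hes6 (21063 bp) encodes an antagonist of HES1, Btg2 (20447 bp) marks progenitors in their last division, and Dll1 (13808 bp) encodes a Notch ligand.

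Of the 17 listed photoreceptor regulators, 5 had an end in a domain (29.4%). They were Casz1, Rax, Mef2d (11593 bp), Rorb (11110 bp), a nuclear receptor gene upstream in rod development, and Crx (10682 bp), the homeodomain gene that activates photoreceptor genes. Nr2e3, a rod nuclear receptor gene that represses cone genes, overlapped a domain of 10444 bp. Of the genes of the phototransduction machinery, 0 of 20 rod genes and 0 of 11 cone genes had an end in a domain. The share over all protein-coding genes was 0.586%, so counts of 0 in lists this short are near the background. The longest region of the cone list was 4132 bp at Gnb3. Among nuclear factor I genes, which act in late progenitors, 1 of 4 had an end in a domain, Nfia (10175 bp), and Nfix overlapped one of 11434 bp.

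Genes of the other retinal classes were few. They were Irx5 for bipolar cells (12135 bp), Tfap2b for amacrine and horizontal cells (11318 bp), Dkk3 for Müller glia, and E2f1 for the cell cycle (21599 bp), each the only listed gene of its class with an end in a domain. Tfap2a overlapped a domain of 12006 bp, and the pan-neuronal gene Ncam1 overlapped one of 17685 bp. The ganglion cell list had no end in a domain, and its longest region was 8393 bp at Islr2. The same held for axon guidance (Ephb2, 9548 bp), chromatin and NuRD (Arid1a, 7445 bp), housekeeping (Gapdh, 7221 bp) and ribosomal protein genes (Rpl10a, 3762 bp). These lists held 16 to 26 genes each, and at the 0.586% share of all protein-coding genes a count of 0 is near the background. All 38 Hox genes, silent in retina, had a longest region of 0 bp.

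The listed markers of other cell types a dissected eye could hold were outside the domains. Pigment epithelium, vascular, microglial, astrocyte, lens, erythroid, and liver or muscle lists each had 0 genes with an end in a domain. These lists held 6 to 17 genes each, and the share over all protein-coding genes was 0.586%. A count of 0 in lists of this size is near that share and does not set these genes apart. The longest region among them was 9294 bp at Kdr, the endothelial VEGF receptor gene, and the other 6 lists did not pass 2802 bp. In all, 25 of the 420 listed genes on these chromosomes had an end in a domain, and 16 of the 24 lists had none.

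Some genes carried several domains. At least 2 domains overlapped each of 21 genes, and 4 genes had 3 or more, among them Casz1 with 6, Msi2 with 4 and Pmepa1 with 3. Msi2 encodes an RNA-binding protein of stem and progenitor cells, and Pmepa1 encodes a negative regulator of TGF-beta signalling. Domains within 50 kb of each other formed 29 clusters with 73 members, and the largest were the 6 at Casz1, over 153.6 kb, and 5 around Sema3b, Gnai2, Slc38a3 and Sema3f on chr9.

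Casz1 itself, the gene deleted in the cKO, was the gene with most domains. They took up 98439 bp, and 63.4% of its 150528 bp lay in domains. Control and cKO peaks covered 82.9% and 74.8% of that domain length. The drop was close to that pooled over all 277 domains, from 85.0% to 77.0%. The domain at its upstream start (chr4:148803780-148823608) was 92.2% covered in control and 91.8% in cKO. The 4 wholly inside the gene had 83.9% and 67.0% (chr4:148851538-148862832), 86.1% and 76.6% (chr4:148871108-148882917), 70.4% and 51.9% (chr4:148884484-148895781) and 85.6% and 82.4% (chr4:148906499-148931527). The last, at the downstream end, had 74.8% and 64.5%. The 51.9% belongs to the domain that contains the second promoter printed above. H3K27me3 was called at the upstream start alone among the 6, on 8.17% of that domain in control and 9.52% in cKO. ATAC regions found in all 4 lists numbered 13 over the 6 domains. The deletion removes part of this gene, and whether lost sequence contributes to its lower coverage was not tested.

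**Figure D2:**
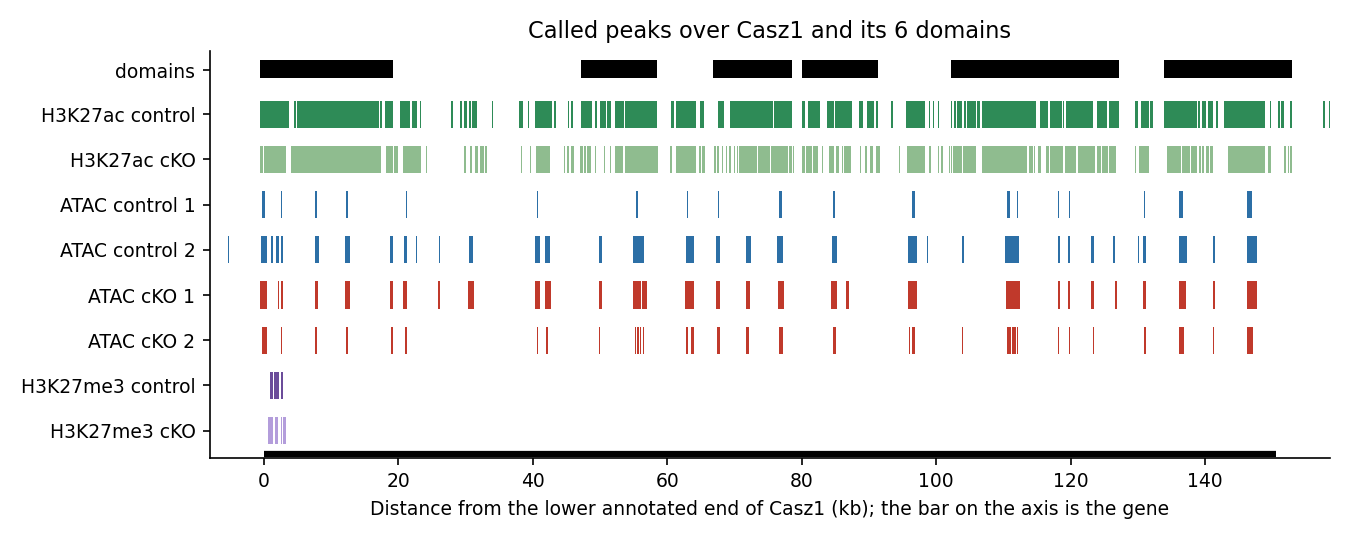
Called peaks in each list over Casz1, in kb from its lower annotated end, with the 6 domains as black bars on top and the gene as a bar on the axis. The 6 domains cover 98439 bp, acetylated peaks continue through the cKO list, and H3K27me3 is called near the start alone.

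In the cKO list the same domains were covered less. Pooled over the 277 domains, cKO peaks covered 77.0% of the length against 85.0% in control. Coverage was lower in 268 domains and higher in 9, with a median difference of -7.64 points and a range from -37.9 to 10.6. Because the domains were picked for control coverage, the shorter joined regions of 2000 to under 10000 bp, picked from the same list, give the background: their coverage was 84.3% in control and 73.3% in cKO. Covered bases were 9.36% fewer in domains, 13.1% fewer in the shorter regions and 6.86% fewer over the whole lists. Bases covered were at least 1.2 times lower in cKO in 45 of the 277 domains, against 2988 of 8589 shorter regions (34.8%). They were at least 1.2 times higher in 0 domains, against 68 shorter regions (0.792%). A given change in bases is a larger fold in a shorter region, and median lengths were 13054 bp in domains and 2834 bp in shorter regions. These shares are therefore not a like comparison. The cKO list held more but narrower peaks, 76177 against 70458, with a median of 322 against 397 bp. How far peak number and width enter the coverage values above was not tested.

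**Figure D3:**
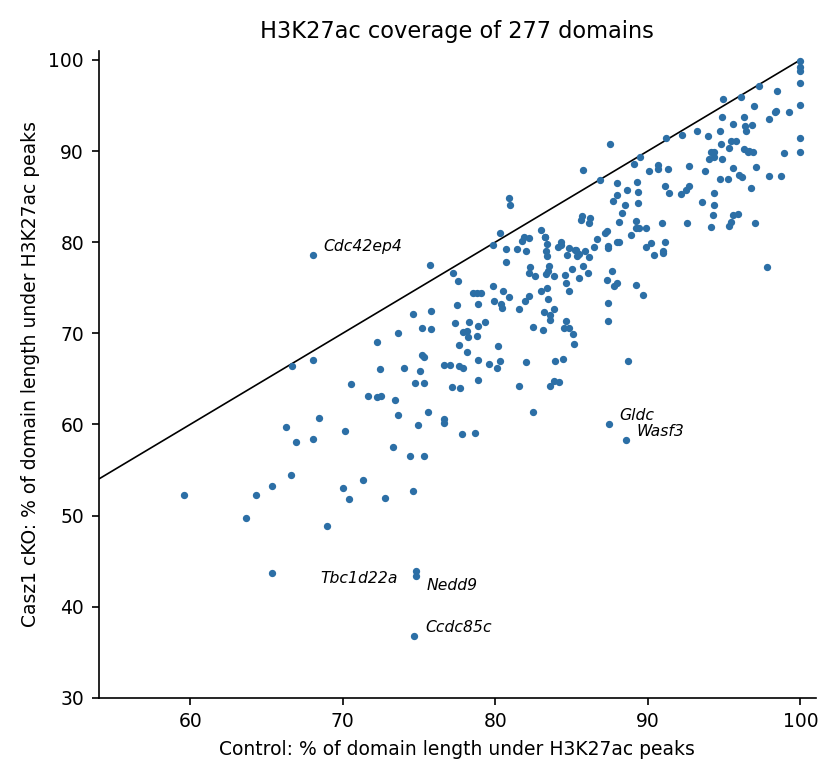
Percentage of each domain's length under H3K27ac peaks in control (horizontal) and cKO (vertical), with 1 point per domain and a line of equal coverage. Of 277 points, 268 lie below the line, and the named ones are those with the largest differences.

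Most control bases stayed under peaks in the cKO list. Of all control bases under peaks in the domains, 86.0% were also covered in cKO, 10.9% were uncovered in the interior and 3.10% at the outer edges. Control peaks set the edges, and neither share is scaled to the length of interior or edge, so they are not compared. In turn, 26.1% of the bases in the gaps between control peaks were covered in cKO. Applying the joining rule to the cKO list gave 210 domains, and 185 of the 277 control domains (66.8%) overlapped one. The 92 that met none were shorter, with a median of 11005 bp against 14110 bp, and their longest cKO region ranged from 2936 to 9995 bp. All 46 domains with a wide control peak were met, and 139 of the 231 chains (60.2%). The domains with a wide peak were also longer, with a median of 16036 against 12442 bp. Length and peak structure are therefore not separated in this contrast. Over the 210 domains chosen by the cKO list, control peaks covered 85.3% of the length and cKO peaks 83.1%, so control coverage was the higher one there too.

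The largest differences lay at genes of no single list. A second Ccdc85c domain went from 74.7% in control to 36.8% in cKO, a difference of -37.9 points, beside -6.63 points in the longest domain at the same gene. Differences of -31.5, -30.9, -30.3 and -27.4 points were found at Tbc1d22a, Nedd9, Wasf3 and Gldc. Nedd9 encodes a scaffold of focal adhesions, Wasf3 a driver of actin branching and Gldc a glycine cleavage enzyme. Whrn (-21.9 points), whose protein whirlin is part of the photoreceptor and hair cell Usher complex, Tgfb2 (-21.7 points) and a domain whose nearest end was that of Ptprc, 360660 bp away (-21.7 points), followed. On the other side, Cdc42ep4, an effector of the small GTPase CDC42, had 68.0% in control and 78.6% in cKO. Foxn3 was higher by 3.96 points, a domain near Haao by 3.27, Arhgef10 by 3.10, the Malat1 domain by 2.14 and a domain near Rbm5 by 1.73. The Mir183 and Mir96 domain was higher by 0.79 points and one near 4931429L15Rik by 0.65. None of these has a replicate.

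The domains of listed genes lay on both sides of the median difference of -7.64 points. Coverage of the Pax6 domain was 96.8% in control and 92.8% in cKO, of the Six3 domain 98.4% and 94.3%, and of the Six6 domain 100% and 97.4%. Rax had 92.7% and 88.3%, and the longer Meis1 domain 100% and 99.9%. These differences, and those of Notch1 (-2.52 points), Meis2 (-5.03) and the shorter Meis1 domain (-6.98), were smaller than the median. Other genes of the same list were on the far side of it: Sox8 (-9.14 points), Zic2 (-8.36), Id3 (-8.10), Ccnd1 (-8.07) and Lhx2 (-10.8). Hes6 had 90.2% and 79.9%, Dll1 73.3% and 57.5%, and Btg2 had 94.9% and 93.8%. Among photoreceptor regulators, Rorb had 100% and 98.8%, Nr2e3 88.0% and 86.5%, Mef2d 89.2% and 82.4%, and Crx 85.0% and 77.1%.

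Open chromatin took up a small part of the domains. ATAC peaks covered 6.03% of domain length in control replicate 1, 17.2% in control replicate 2, 15.7% in cKO replicate 1 and 8.82% in cKO replicate 2. The 2 control lists thus lay on either side of both cKO lists. Means were 11.6% ± 7.87 (SD, n = 2) in control and 12.3% ± 4.85 (SD, n = 2) in cKO, a difference of 0.657 points, with an exact two-sided permutation p of 1. Groups of 2 cannot give a p below 0.333. The test therefore could not have reached 0.05, and no conclusion about genotype is drawn from it. The direction turned over without control replicate 1 (-4.91 points) or without cKO replicate 1 (-2.77 points).

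In each library the domains held less ATAC coverage per base than shorter acetylated regions. Those had 13.0% and 35.1% in the control lists and 32.6% and 18.7% in the cKO lists, in replicate order. The mean log2 ratio of domain over shorter-region coverage was -1.07 (SD 0.0334, n = 4), lower in domains in 4 of 4 libraries, with an exact two-sided sign-flip p of 0.125, the smallest that 4 libraries can give. The 4 ratios were close together although the lists differed widely in length. Coverage dropped with length among the regions below the threshold too, from 17.7% to 7.13% between the 2000 to 3000 bp and the 7000 to 10000 bp classes in control replicate 1. The 3 domain classes, from 10000, 15000 and 20000 bp, had 6.16%, 5.75% and 6.04% in the same list. In the other 3 lists coverage went on dropping over these classes: 18.1%, 16.2% and 15.9% in control replicate 2, 16.7%, 14.8% and 13.9% in cKO replicate 1, and 9.40%, 8.27% and 7.95% in cKO replicate 2.

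**Figure D4:**
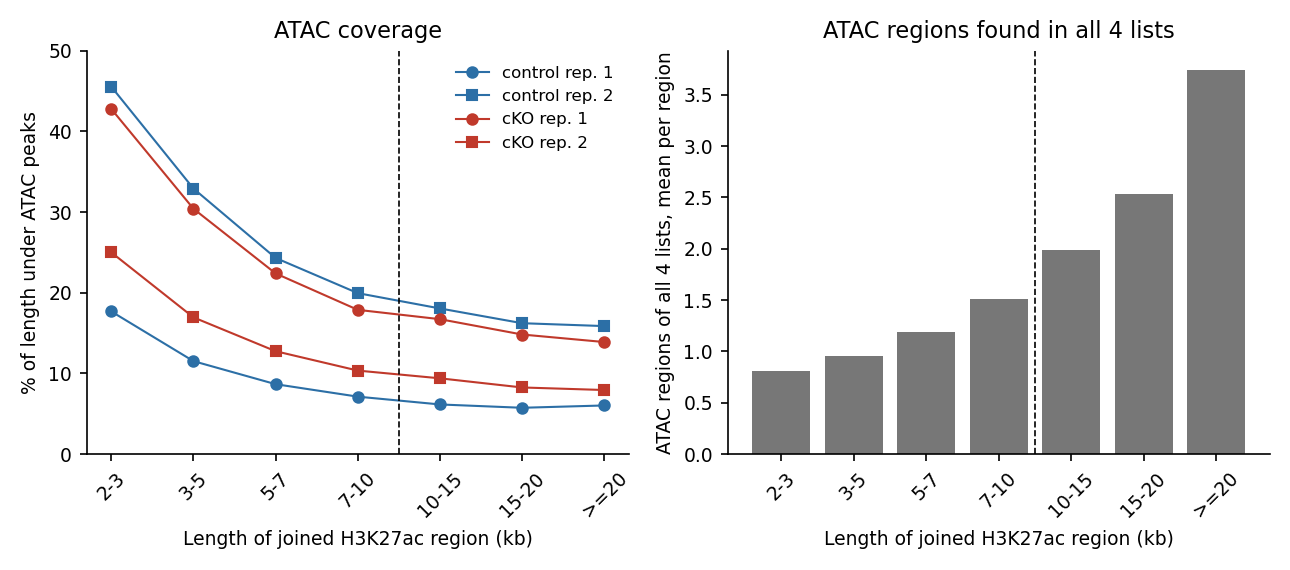
Left, percentage of region length under ATAC peaks in each of the 4 lists by length class in kb. Right, mean number per region of ATAC regions found in all 4 lists. The dashed line is the 10 kb minimum; coverage in the longest class is below that of the shortest in every list, while the number per region is higher, at 3.74 against 0.812.

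ATAC regions called in all 4 lists numbered 637 in the domains, with a median of 2 per domain and a highest count of 8. At least 1 was present in 274 of 277 domains (98.9%), against 79.5% of shorter regions, which offer less length. Per 10000 bp the domains had 1.56 and the shorter regions 2.72. The domains with 8 were those of Ccdc85c, Pax6 and Mir9-2, and Pcbp3, Lrp8, Six3 and Foxn4 had 6 each. Peaks in the Pax6 domain numbered 10 and 15 in the control lists and 13 and 10 in the cKO lists. For Six3 the counts were 6 and 11 in control and 11 and 9 in cKO. In both domains the short control list had the lowest count or tied for it. No domain lacked ATAC peaks in every list, and 3 had none shared by all 4, among them a Pmepa1 domain of 17235 bp and a domain at Rad51b.

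ATAC peaks were spread about evenly along the domains, but fewer lay in the gaps between H3K27ac peaks than the gaps' share of length. Between 17.5% and 20.4% of their midpoints lay in the outer 20% of domain length (10% at each end) and between 18.4% and 19.8% in the central 20%. By contrast 5.08% to 6.05% of midpoints fell in the gaps between H3K27ac peaks, which made up 15.02% of the length. ATAC peaks overlapped 62.5% and 78.1% of the 96 promoter windows in the control lists and 77.1% and 65.6% in the cKO lists. For all promoter windows the shares were 50.7%, 63.1%, 61.7% and 55.0%. The Pax6, Six3, Notch1, Casz1 and Crx windows printed above overlapped ATAC peaks in all 4 lists. The Meis2 window overlapped none, although the Meis2 domain held 3, 7, 8 and 5 peaks.

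ATAC regions that separated the genotypes were rare in domains. Of 1151 distinct regions there, 3 were called in both cKO lists and neither control list (0.261%, against 0.273% of all regions), at Nfia, Msi2 and Cxxc5. In the other direction 7 were called in both control lists and neither cKO list (0.608%, against 0.125%), at Mab21l2 with Lrba, Whrn, Vgll4, Smim38 with Tpcn2, Trmt61a, Zhx2 and Dtx4. Like 268 of the 277 domains, all 7 of these had lower acetylation coverage in cKO, with differences from -21.9 points at Whrn to -2.67 points at Mab21l2, on both sides of the median of -7.64. These few regions were not tested, and the short list of each genotype limits which regions can be called in both.

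H3K27me3 was absent from most domains but nearly filled a few. Pooled, it covered 3.94% of domain length in control and 4.16% in cKO, against 4.61% and 4.70% of the shorter regions. It was called in 35 domains in control and 37 in cKO. It covered at least 10% of the length in 25 domains of 277, against 8.15% of shorter regions, a share near the background. The highest values were in developmental transcription factor genes and a microRNA cluster. The Tfap2b domain was 100% covered in both genotypes, Irx5 96.0% in control and 94.4% in cKO, the Mir183 and Mir96 domain 95.8% and 93.5%, Tfap2a 95.1% in both and Hmx1 93.7% and 96.5%. Control H3K27ac also covered 85.7% of the Tfap2b domain and 98.5% of the Hmx1 domain. These lists come from retinal tissue that was not sorted by cell type, so both marks in the same cells and each mark in different cells cannot be told apart.

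Among domains with at least 10% H3K27me3, the cKO value was higher in 15 and lower in 9. The Pax6 domain had 29.3% in control and 39.1% in cKO, Tbx2, a T-box gene of the dorsal retina, had 42.8% and 55.01%, and Rax had 12.5% and 18.8%. Meis2 (76.4% and 77.6%), Fezf2 (72.7% and 75.5%), Lhx2 (34.9% and 35.04%), Ccnd1 (34.0% and 34.9%) and Dll1 (29.5% and 29.0%) differed by less. At Pax6 the H3K27me3 peaks lay mainly over the domain's upstream part, and additional short peaks were called downstream in cKO. With 1 library per genotype none of these differences can be set against replicate spread.

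**Figure D5:**
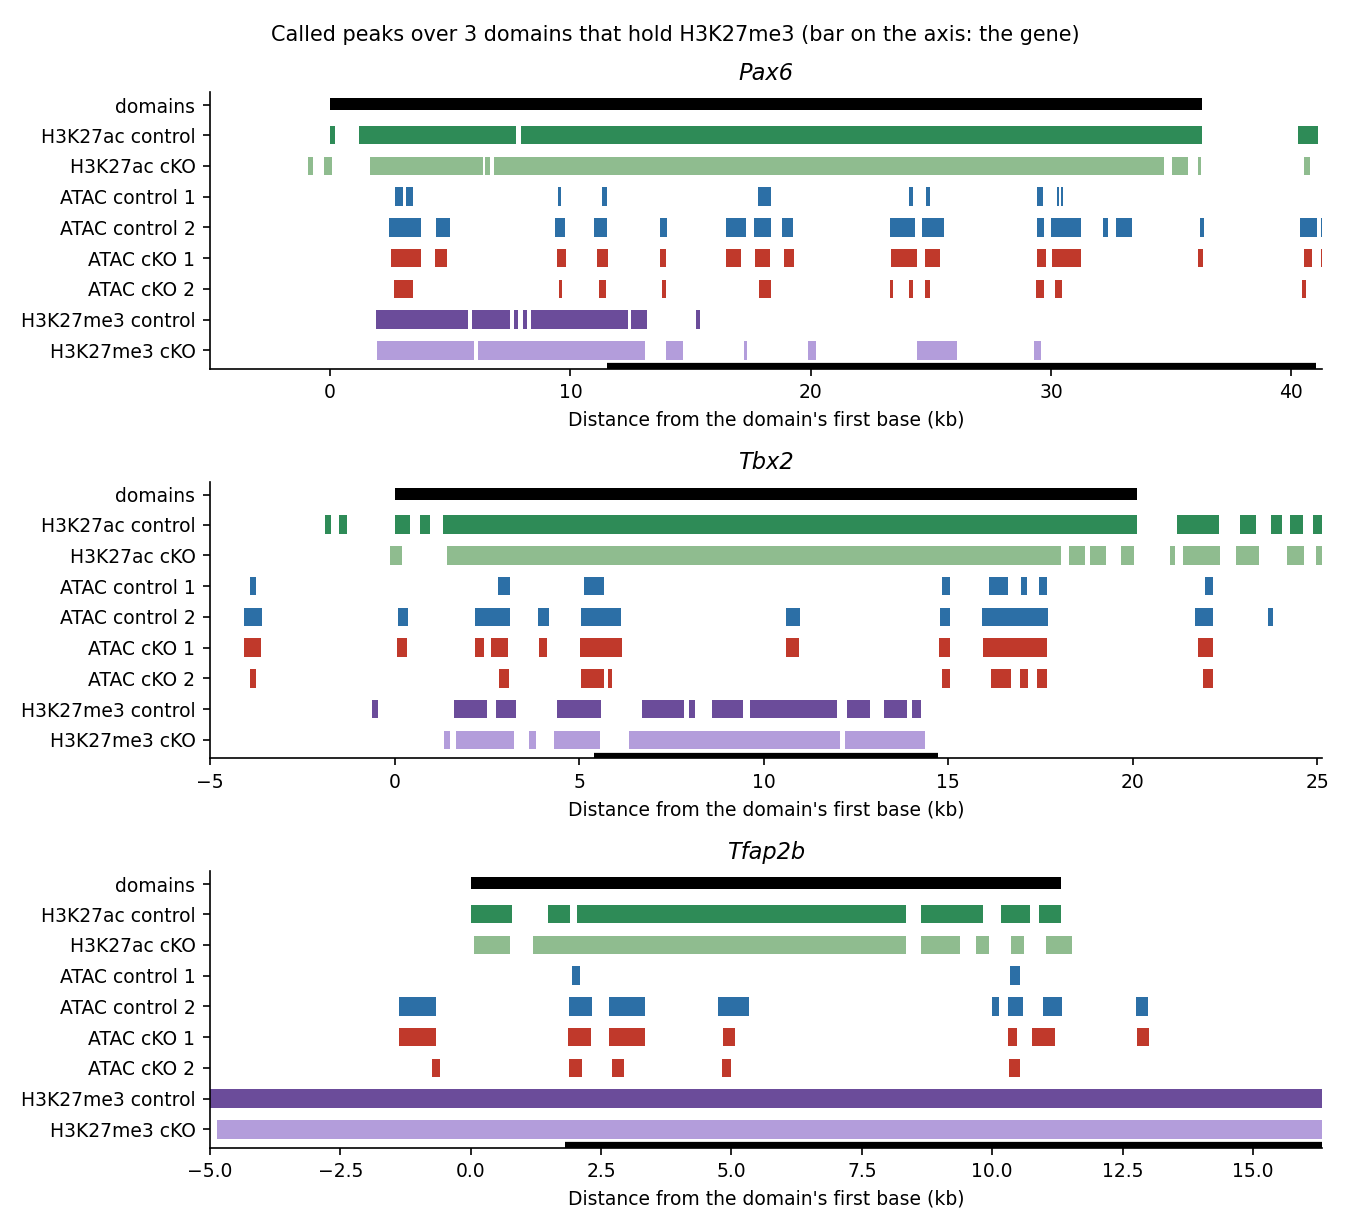
Called peaks in each list over the Pax6, Tbx2 and Tfap2b domains, in kb from the first base of each domain, with the domain as a black bar on top and the gene as a bar on the axis. H3K27me3 covers 29.3%, 42.8% and 100% of the 3 domains in control and 39.1%, 55.01% and 100% in cKO, while H3K27ac peaks run through the same bases.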

How the data were processed

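Peak lists from 8 samples of mouse retina were used: ATAC-seq (2 control, 2 cKO) and ChIP-seq for H3K27ac and H3K27me3 (1 each per genotype). Per the submitters' processing notes, Bowtie2, MACS2, deepTools and the build mm10 were used; the sources used here give no parameters, thresholds, duplicate handling or role of input. The deposited score column is 0 throughout, so the authors' lists carry no height, depth or p-value, and only start and end positions were analysed. Groups and replicate numbers came from the sample titles. The labels say that the ATAC experiments took place on different days but do not assign libraries to days, and nothing says that libraries came from separate animals, so p-values measure the spread between these libraries.

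Intervals and exact permutation tests were handled with Python 3.11.15, numpy 2.4.6 and pandas 2.3.3, and figures with matplotlib 3.10.9. Features were matched by at least 1 shared base to RefSeq genes, promoters and microRNAs of GRCm38.p6. Joining was tested on simulated peaks. A domain was named by protein-coding ends inside it, else by the nearest end. The domains named were the 15 longest, the 8 largest gains and losses, the 5 with most shared ATAC regions or most H3K27me3, the 3 on either side of the threshold, and up to 6 listed genes per list. Domain members, gene lists and this rule were chosen with earlier results of these data known. Other gaps, lengths, peak widths and left-out ATAC libraries were tried as alternatives. Values of a few listed or named genes are not reported here.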

Additional observations from a re-analysis of the deposited data

How the results depend on the processing

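The number of domains was 138 with gaps of at most 500 bp joined, 575 with 2000 bp, 476 from 8000 bp and 91 from 15000 bp. In that order, cKO peaks covered 87.4%, 63.0%, 76.0% and 78.1% of domain length, cKO domains met 97, 380, 338 and 60 control domains, 60, 285, 212 and 42 genes had an end in a domain, and control H3K27me3 covered 5.83%, 3.22%, 5.17% and 3.35%. With H3K27ac peaks of at least 300 bp, cKO coverage was 80.9%, 119 domains were met and H3K27me3 covered 5.13%. With domains at least 80% covered in control, these coverages were 82.2% and 5.34%. With domains taken from the cKO list, the other genotype's list (control) covered 85.3% and control H3K27me3 4.83%. Adding chromosome X gave a cKO coverage of 77.1%, and counting any overlap with a gene body gave 227 genes. The log2 ATAC ratio stayed negative in all 14 alternatives run, from -1.35 to -0.979. The ATAC difference between genotypes ranged from -4.91 to 6.22 points when 1 library was left out, and was reversed without control replicate 1 (-4.91) or cKO replicate 1 (-2.77). As a replicate block, the paired difference was 0.657 points with an exact p of 1. Same-numbered libraries deviated in opposite directions over the domains (correlation -0.785), and crossed numbers, added after seeing the data, gave 0.657 points and 0 calls at the threshold. Read depth is unknown, which limits every share of length.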

Other observations

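The joining rule applied to the cKO list gave 24 domains that met no control domain, and these are named here after their values were seen. They included Insm1 (10107 bp), which encodes a zinc finger factor of newborn neurons, and Gad2 (10262 bp), the gene of a GABA-synthesising enzyme of amacrine and horizontal cells. Epha2, an ephrin receptor gene, had 13390 bp, and the longest was at Arvcf (17448 bp). Their longest control regions were 9894 bp at Insm1, 9371 bp at Gad2, 7117 bp at Epha2 and 8658 bp at Arvcf, so Insm1 and Gad2 lay close under the threshold in control. The longest cKO domain, 48722 bp at Pmepa1, ran through 3 control domains.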
